A study of Mus musculus with 4 samples.

Results

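Histone genes were examined in RNA libraries whose label names the MLE-12 line, immortalized cells of mouse lung epithelium that are used as a model of alveolar type 2 cells. Members were the protein-coding genes with a symbol beginning Hist1h, Hist2h, Hist3h or Hist4h, together with the histone variant genes H3f3a, H3f3b, H2afz, H2afv, H2afy, H2afy2, H2afx and H1f0. This rule gave 75 of the 53465 gene identifiers in the count table, of which 67 were replication-dependent genes and 8 were variants. The 67 comprised 6 H1, 18 H2A, 18 H2B, 12 H3 and 13 H4 genes, 54 of them in the Hist1 cluster on chromosome 13, 10 in Hist2 on chromosome 3, 2 in Hist3 on chromosome 11 and 1 in Hist4 on chromosome 6.

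Replication-dependent histone genes supply the bulk of nucleosome proteins while DNA is copied, and most lie in clusters of short genes without introns. Their mRNAs usually end in a conserved stem-loop instead of a poly(A) tail, and this stem-loop is bound by SLBP, which governs 3′ end formation and translation, and the mRNA is degraded when DNA synthesis stops. Variant histones such as H3.3, H2A.Z, macroH2A and H1.0 come from genes scattered over the genome, are made outside S phase too, and mostly yield polyadenylated mRNA. Because the libraries were made from polyadenylated RNA, the values for replication-dependent genes describe only the transcripts that were captured by that selection, not total histone mRNA.

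The study asked what 1-nitropyrene, a nitrated polycyclic aromatic hydrocarbon of diesel exhaust, does to these cells. Control cells (replicates 1 and 2) were cultured without it, and treated cells (replicates 2 and 3) received 5 µM 1-nitropyrene for 12 h. No genetic change separated the groups. The labels did not say whether libraries came from separate cultures. The p-values therefore rested only on the spread between these 4 libraries, which may be technical. That spread was pooled over all tested genes and is not the spread of the single gene.

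Levels are TMM-normalised CPM, that is counts scaled to library size with edgeR's TMM factors, listed in the order control 1, control 2, 1-nitropyrene 2 and 1-nitropyrene 3. Adjusted p-values came from edgeR's quasi-likelihood test with Benjamini-Hochberg adjustment over 7738 genes, and a gene was called at an adjusted p under 0.05. Total counts ranged from 6908055 to 10773733, and the members took 0.221% to 0.251% of them. A count of 0 allows up to 3 counts, which is 0.278 to 0.434 CPM depending on the library. Ribosomal RNA loci held 44.3% to 46.1% of counts, less in each treated library than in each control, and without these loci the test still called 3 members higher and 4 lower. All 6 general lung epithelial markers (Krt8, Krt18, Krt19, Cdh1, Epcam and Nkx2-1) and all 3 airway markers were at 0 in the 4 libraries, as were 4 of 7 alveolar type 2 markers, among them Sftpb. The defining markers of the labelled tissue were therefore at 0, although Abca3, which alveolar type 2 cells use to load surfactant, had 56 to 109 counts. The 6 fibroblast markers summed to 6.71, 3.44, 1.84 and 1.06 CPM, lower in both treated libraries, and their part in the results below was not tested.

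The stem-loop was searched for in the annotated gene models, since it is the feature that sets replication-dependent mRNA apart. Its letters were found after the stop codon in 40 of the 67 replication-dependent genes, and in H2afx alone among the 8 variants. H2afx, which encodes the H2A.X protein that is phosphorylated at DNA breaks, is known to make both stem-loop and polyadenylated mRNA. Of the 27 replication-dependent models without a match, 14 had fewer than 60 bases beyond the coding sequence, and for these the missing match may come from a short model. The stem-loops of the 5 replication-dependent genes called below, and of H2afx, are given 5′ to 3′ as DNA letters on GRCm38 with the 16 bases of stem and loop in capitals. They were shown because the genes that rose and those that fell could be compared by them.
Hist1h2bh (chr13:23542928-23542943, minus strand): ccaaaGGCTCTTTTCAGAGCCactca
Hist1h2bg (chr13:23571843-23571858, plus strand): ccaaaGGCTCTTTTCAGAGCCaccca
Hist1h2bm (chr13:21722506-21722521, plus strand): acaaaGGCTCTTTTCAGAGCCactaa
Hist1h2bj (chr13:22043638-22043653, plus strand): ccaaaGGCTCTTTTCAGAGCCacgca
Hist1h2ap (chr13:21833029-21833044, minus strand): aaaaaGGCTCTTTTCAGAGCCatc
H2afx (chr9:44335240-44335255, plus strand): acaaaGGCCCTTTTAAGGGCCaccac
The 5 replication-dependent genes carried the same 16 letters, the version found in 26 of the 41 members with a match. H2afx carried a version that no other member had. The flanking bases differed at some positions, and the stem-loop began 27 to 38 bases after the stop codon. The sequence annotated beyond it differed more in length, being 1214 bases in Hist1h2bh, 155 in Hist1h2bg, 46 in Hist1h2bm, 23 in Hist1h2bj and 3 in Hist1h2ap. These lengths describe the gene models and not the transcripts in the libraries.

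Most members had few counts or none in these libraries. This was not particular to histones, since only 36.7% to 40.6% of the 21942 protein-coding genes had any count in a given library. Of the 75, 22 had 0 counts in all 4 libraries, 21 had between 1 and 29 counts in total and did not pass the filter on low counts, and 32 were tested. All tested members therefore had enough counts in at least 1 group to pass. The H1 genes, which encode linker histones, were almost undetected: Hist1h1a, Hist1h1b, Hist1h1c, Hist1h1e and Hist1h1t had 0 counts, and Hist1h1d had 1 count in 1-nitropyrene replicate 3. Hist1h1e shares 816 bases of exon with a gene on its own strand. Of the windows of 50 bases in its model, 32.0% also occurred in another gene, most often Hist1h2be. How reads from such stretches were assigned is not known. The Hist3 and Hist4 clusters also had 0 counts, as did the variants H2afv, encoding a second H2A.Z, and H2afy2, encoding a second macroH2A. Among the members under the filter, Hist1h3i had the most counts, with 14, 5, 5 and 5.

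Of the 32 tested members, 3 rose with 1-nitropyrene, 4 fell and 25 were not called. This share of 21.9% lay near the background of 24.5% over all tested genes (13.2% higher and 11.2% lower). The groups did not overlap for 14 of the 32, against 59.2% of all tested genes. The median log2 fold change over the tested members was -4.6e-05, against -0.0035 over all genes, and the median size of the change was 0.25 against 0.20. As a set, the members thus did not stand out by how often they were called, and the results were changes of single genes in both directions.

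**Figure D1:**
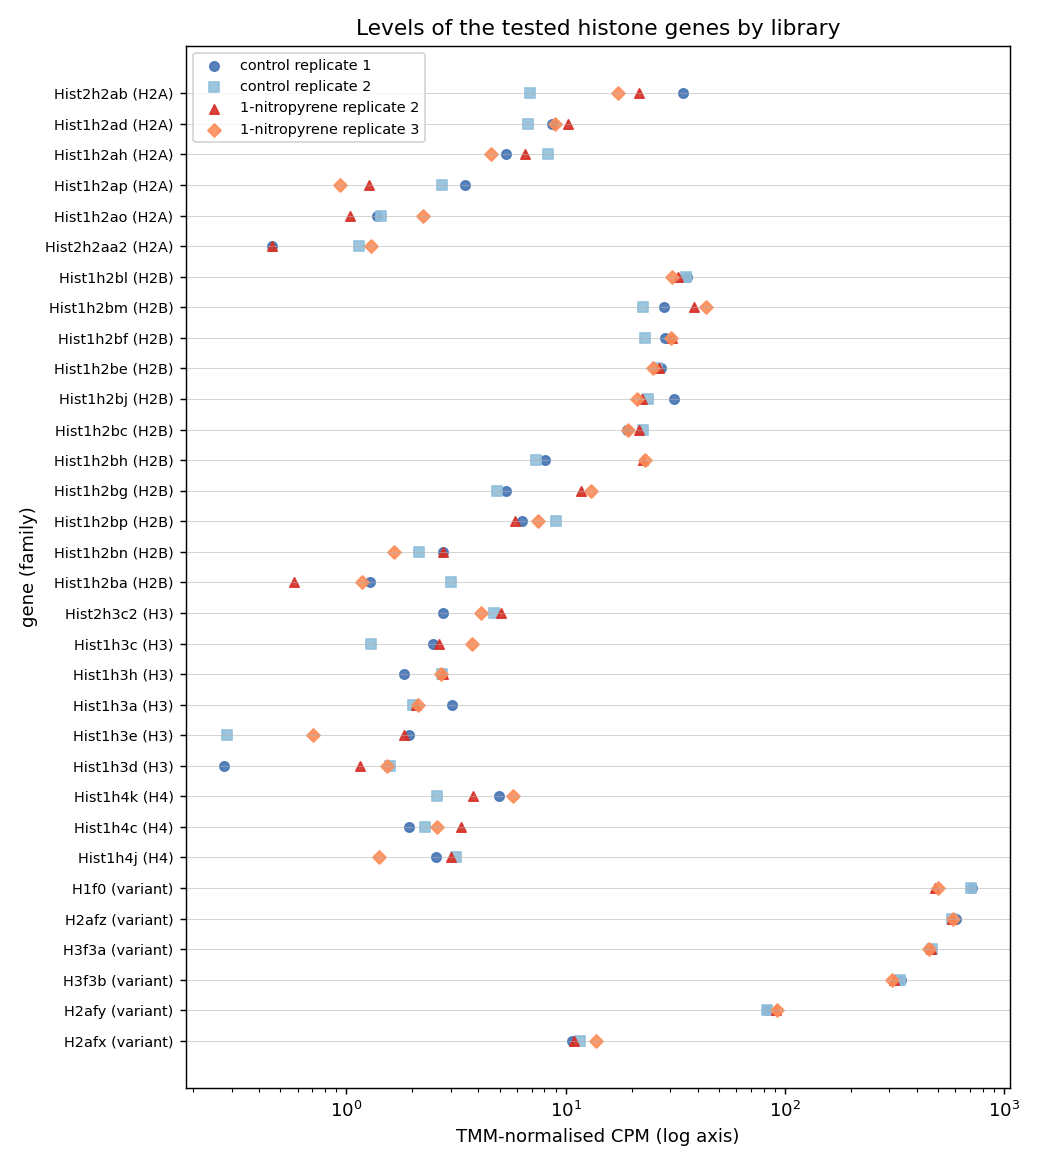
TMM-normalised CPM (log axis) of the 32 tested histone genes, 1 row per gene with its family, 1 point per library (blue circles and squares for the controls, red triangles and orange diamonds for 1-nitropyrene). H1f0, H2afz, H3f3a and H3f3b lie above 300 CPM in every library, whereas the replication-dependent genes stay below 50 CPM; the wide gap of the 2 control points of Hist2h2ab, 34.2 and 6.87 CPM, is visible in the top row.

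H2B, a core histone that pairs with H2A in the nucleosome, was the family with most reads, and it held 4 of the 5 replication-dependent genes that were called. Its share of the replication-dependent counts was 70.5%, 78.0%, 75.4% and 76.7% in the 4 libraries. Of its 18 genes, 4 were at 0, 3 were under the filter and 11 were tested. Among those 11, 3 rose, 1 fell and 7 were not called. This is 36.4% called, against 24.5% of all tested genes, and no test compared H2B with other families.

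Hist1h2bh (ENSMUSG00000114456, chr13:23541714-23543392) stood at 8.09, 7.30, 22.5 and 23.0 CPM. Both treated libraries lay far above both controls and close to each other. The mean rose from 7.70 ± 0.554 to 22.8 ± 0.347 CPM (SD, n = 2 libraries each), a log2 fold change of 1.55 with a standard error of 0.17 and an adjusted p of 1.87e-18 in edgeR's quasi-likelihood test. The fitted rise was 2.92-fold, with a 95% interval of 2.33 to 3.67.

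Hist1h2bg (ENSMUSG00000058385, chr13:23571396-23572013) lies in the same stretch of the Hist1 cluster. It stood at 5.33, 4.87, 11.7 and 13.03 CPM, again with no overlap between the groups. Its log2 fold change was 1.26 ± 0.22 (standard error), with an adjusted p of 1.36e-07 in edgeR, and its fitted rise was 2.40-fold (95% interval 1.79 to 3.22). DESeq2 gave no adjusted p for this gene and called Hist1h2bh and Hist1h2bm.

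Hist1h2bm (ENSMUSG00000114279, chr13:21722044-21722567) was among the more abundant histone genes. It stood at 28.1, 22.6, 38.4 and 43.8 CPM, and both treated libraries exceeded both controls although the spread within each group was wider than for Hist1h2bh. The log2 fold change was 0.66 ± 0.11, the adjusted p in edgeR 1.31e-08 and the fitted rise 1.58-fold (95% interval 1.37 to 1.83).

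Hist1h2bj (ENSMUSG00000069300, chr13:22043214-22043676) moved the other way. It stood at 31.3, 23.8, 22.4 and 21.1 CPM, so that control 2 differed more from control 1 than from the treated libraries. Its log2 fold change was -0.38 ± 0.12 with an adjusted p of 0.0121 in edgeR. The call rested on single libraries: the change was -0.12 (adjusted p 0.721) once control replicate 1 was dropped, and -0.34 (adjusted p 0.0924) once 1-nitropyrene replicate 3 was. The adjusted p was 0.303 in DESeq2 and 0.125 with no filter on low counts.

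The other H2B genes were not called. Hist1h2bl, the replication-dependent gene with the most counts, stood at 35.7, 35.5, 32.5 and 30.5 CPM (log2 fold change -0.17 ± 0.11, adjusted p 0.235 in edgeR). Hist1h2bf, Hist1h2be and Hist1h2bc, at 19.0 to 30.6 CPM, had log2 fold changes of 0.21, -0.05 and 0.01. Hist1h2bp, Hist1h2bn and Hist1h2ba were low. Hist1h2ba, which encodes the testis H2B, stood at 1.29, 3.01, 0.575 and 1.17 CPM (adjusted p 0.100 in edgeR), and only without control replicate 1 was it called lower, with a log2 fold change of -1.77 and an adjusted p of 0.0302.

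The shares of single genes in the H2B counts are given next. Hist1h2bh took 4.2% and 4.0% of H2B counts without treatment, against 10.4% and 10.6% with it. Hist1h2bg took 2.7% in each control and 5.4% and 6.0% after treatment, and Hist1h2bm 14.4% and 12.5% against 17.7% and 20.1%. Hist1h2bl went from 18.3% and 19.7% to 15.01% and 14.03%. These shares come from the same counts as the fold changes above and are given as a description.

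**Figure D2:**
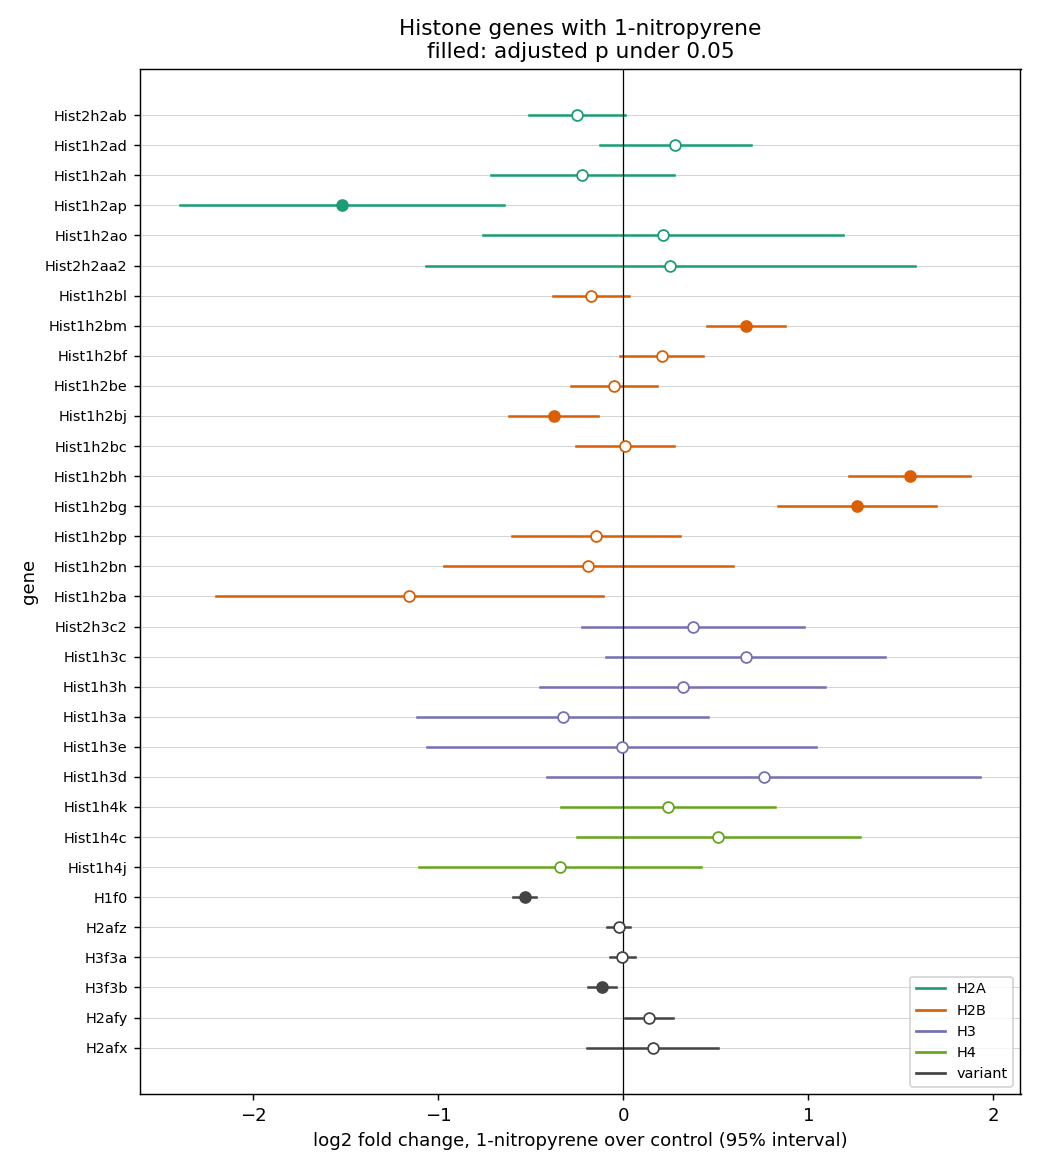
Log2 fold change of 1-nitropyrene over control for the 32 tested histone genes, with 95% intervals from edgeR's quasi-likelihood fit, coloured by family; filled points have an adjusted p under 0.05. Filled points to the right of 0 are Hist1h2bm, Hist1h2bh and Hist1h2bg, and filled points to the left are Hist1h2ap, Hist1h2bj, H1f0 and H3f3b; intervals widen for genes with few counts.

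Near-identical copies limit how far reads can be assigned to 1 gene. Between pairs of equal coding length, H2B genes had a median coding identity of 95.6%, with 96.7% for H2A, 97.5% for H3 and 93.9% for H4. Pairs of unequal coding length were not compared. Hist1h2bh and Hist1h2bg were identical at 372 of 378 coding bases, and Hist1h2bh and Hist1h2bm at 365. Over windows of 50 bases in the whole gene model, 17.9% of those in Hist1h2bh also occurred in another gene, against 49.7% in Hist1h2bg, 43.8% in Hist1h2bm, 59.4% in Hist1h2bj and 82.8% in Hist1h2bl, with a median of 49.5% over the replication-dependent genes. The sources used here do not give how reads with several matches were counted, which leaves the split of reads among these copies uncertain.

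H2A, the partner of H2B, had 18 genes, of which 4 were at 0, 8 were under the filter and 6 were tested. Of those 6, 0 rose, 1 fell and 5 were not called; 1 of the 6 had an unadjusted p under 0.05. Every one of the 18 shares exon sequence with a gene annotated on the opposite strand, in most cases a predicted short gene lying within the coding sequence. The kit keeps strand, but the sources used here do not give the strand setting of the counting, and reads of such pairs may not be told apart.

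Hist1h2ap (ENSMUSG00000094777, chr13:21833026-21833507) stood at 3.49, 2.72, 1.26 and 0.939 CPM. Both treated libraries lay below both controls, at 38, 19, 11 and 8 counts. The log2 fold change was -1.52 ± 0.45 with an adjusted p of 0.00456 in edgeR. Leaving out control replicate 1 ended the call (-1.29, adjusted p 0.141), as did leaving out 1-nitropyrene replicate 3 (-1.33, adjusted p 0.0524). Its coding sequence is identical to that of Hist1h2ao, with which it shares 93.1% of its windows of 50 bases, and Hist1h2ao stood at 1.38, 1.43, 1.03 and 2.23 CPM.

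Hist2h2ab (ENSMUSG00000063689, chr3:96219865-96220308), the H2A gene with the most counts, differed most between the 2 controls. It stood at 34.2, 6.87, 21.7 and 17.3 CPM, with both treated libraries between the controls. The ratio of 4.97 between the controls was the largest among the 4715 tested genes with a control mean of at least 10 CPM, whose median ratio was 1.06. The gene was not called (log2 fold change -0.25 ± 0.13, adjusted p 0.163 in edgeR). Its standard error came from the spread pooled over genes and does not reflect the gap between its controls. Leaving out 1 control decided its direction: it was called higher without control replicate 1 (1.51, adjusted p 1.09e-07) and lower without control replicate 2 (-0.81, adjusted p 6.09e-07). The antisense gene Gm15444, which shares 303 bases of exon with it, had 336, 119, 230 and 211 counts. The remaining H2A genes, Hist1h2ad, Hist1h2ah, Hist1h2ao and Hist2h2aa2, stayed at or below 10.2 CPM in every library and had log2 fold changes between -0.22 and 0.28.

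The genes of H3 and H4, the core pair that is laid down first in a nucleosome, were low and none was called. For H3, 2 of 12 genes were at 0, 4 were under the filter and 6 were tested, and 0 of these had an unadjusted p under 0.05. Hist2h3c2, the H3 gene with the most counts, stood at 2.76, 4.73, 5.06 and 4.11 CPM (log2 fold change 0.38 ± 0.31, adjusted p 0.408 in edgeR). For H4, 5 of 13 were at 0, 5 were under the filter and 3 were tested, and again 0 had an unadjusted p under 0.05. Hist1h4k, with the most counts, stood at 4.96, 2.58, 3.79 and 5.75 CPM (0.24 ± 0.29, adjusted p 0.604 in edgeR). DESeq2 gave no adjusted p for any of these 9 genes. Their 95% intervals were wide, from 0.793 to 1.76 times the control level for Hist1h4k.

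Summing each family kept the reads of members under the filter. The H2B sum stood at 195, 180, 217 and 218 CPM, with both treated libraries above both controls and a log2 ratio of means of 0.21. The H3 sum stood at 14.9, 14.0, 17.5 and 16.8 CPM (0.24) and the H4 sum at 9.92, 8.31, 10.8 and 10.9 CPM (0.25), each also without overlap. The H2A sum, of which Hist2h2ab made up 50.03%, overlapped at 56.6, 28.6, 42.4 and 38.3 CPM (-0.08), and its log2 ratio was 0.49 without control replicate 1 and -0.49 without control replicate 2.

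All replication-dependent genes together stood at 276, 231, 287 and 284 CPM, a log2 ratio of 0.17 that became 0.30 without control replicate 1 and 0.05 without control replicate 2. The log2 ratio of the H4 sum was 0.39 without control replicate 1 and 0.13 without control replicate 2. The sum over the 8 variants stood at 2210, 2187, 1946 and 1955 CPM, lower in both treated libraries, and its log2 ratio of -0.17 became -0.03 without H1f0. With 2 libraries against 2, an exact permutation test cannot give a two-sided p below 0.333, and the sums are given without a test. In bulk RNA, fewer cells that express a gene and less RNA per cell cannot be told apart.

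**Figure D3:**
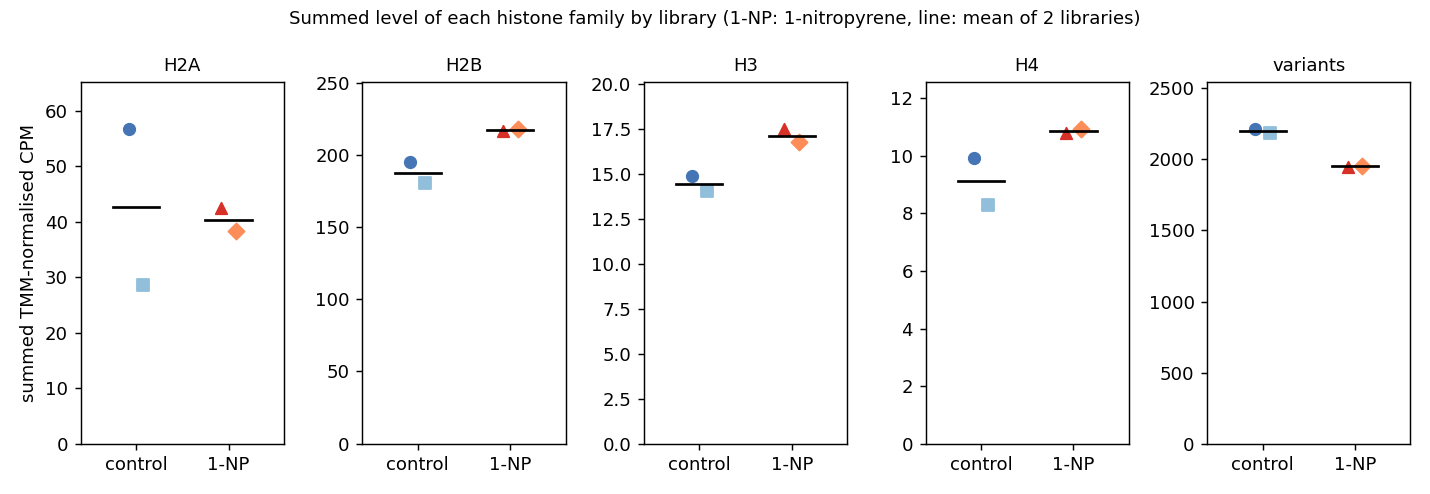
Summed TMM-normalised CPM of each histone family in each library, with a separate axis from 0 for each family; circles and squares are control replicates 1 and 2, triangles and diamonds are 1-nitropyrene (1-NP) replicates 2 and 3, and lines are means of 2 libraries. The treated points lie above both controls for H2B, H3 and H4, between the controls for H2A, and below both controls for the variants.

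The variants carried most histone reads, and H1f0 had the smallest adjusted p of all members. H1f0 (ENSMUSG00000096210, chr15:79028450-79030504) encodes H1.0, a linker histone known to accumulate in cells that stop dividing. It stood at 717, 707, 485 and 500 CPM, with the pair in each group close together and far from the other pair. The mean fell from 712 ± 6.98 to 492 ± 10.6 CPM (SD, n = 2 libraries each), a log2 fold change of -0.53 ± 0.03 with an adjusted p of 3.47e-59 in edgeR. Treated cells thus held 0.691 times the control level (95% interval 0.662 to 0.722). The change lay between -0.56 and -0.51 and was called in each of the 15 alternative settings. In the same direction, 0% of the windows of 50 bases in this gene occurred in another gene's transcripts. H1f0 is, however, among the 5 of 8 variants that share exon sequence with a gene annotated on the opposite strand. The strand setting of the counting is not known, and reads of such a pair may not be told apart.

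The pair of genes for H3.3, the H3 variant laid down outside replication, were both abundant, and 1 of them was called. H3f3a stood at 455, 468, 463 and 455 CPM, with overlapping groups (log2 fold change -0.01 ± 0.03, adjusted p 0.924 in edgeR, fitted ratio 0.995 with a 95% interval of 0.950 to 1.04). H3f3b stood at 338, 335, 314 and 307 CPM, lower in both treated libraries. Its log2 fold change of -0.11 ± 0.04 was called at an adjusted p of 0.0178 in edgeR. That call was lost in DESeq2 (adjusted p 0.168), with no filter on low counts (0.0690), and when control replicate 1 (0.160), control replicate 2 (0.0747) or 1-nitropyrene replicate 3 (0.113) was left out. The difference between the 2 genes was not tested. Gm17275, annotated on the opposite strand of H3f3a and sharing exon sequence with it, had 3042, 1983, 2317 and 2247 counts.

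The H2A variants were not called. H2afz, encoding H2A.Z, stood at 607, 582, 582 and 587 CPM (log2 fold change -0.03 ± 0.03, adjusted p 0.616 in edgeR), and the 95% interval of its ratio was 0.941 to 1.03. H2afy, encoding macroH2A, which is known for its place on silent chromatin, stood at 82.6, 83.3, 90.9 and 91.8 CPM. Both treated libraries lay above both controls, but the log2 fold change of 0.14 ± 0.07 had an adjusted p of 0.115 in edgeR. H2afx stood at 10.7, 11.6, 10.9 and 13.7 CPM, with overlapping groups (0.16 ± 0.18, adjusted p 0.576 in edgeR).

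Levels of different genes were compared per kb of exon, as TMM-normalised CPM per kb. In the controls H1f0 stood first at 349 and 344, followed by H2afz at 342 and 328, so that the lower H1f0 value and the higher H2afz value nearly met. After treatment H1f0, at 236 and 243, stood below H2afz, at 328 and 331. H3f3a (130, 134, 132 and 130) and H3f3b (114, 113, 106 and 103) came next in every library. Hist1h2bl, at 93.6, 93.2, 85.4 and 80.1, led the replication-dependent genes in the controls. Hist2h2ab, at 77.0 and 15.5, came next in control 1 but not in control 2, and Hist1h2bj stood at 67.7 and 51.3. In 1-nitropyrene replicate 3 it was overtaken by Hist1h2bm, at 83.6.

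Many H2B and H2A genes start head to head from a shared stretch of DNA. Within the clusters 13 pairs of members started in opposite directions less than 1000 bases apart, and 12 of them joined an H2B and an H2A gene with 176 to 306 bases between the starts. In 8 of these 12 pairs the H2B gene was higher per kb in every library, in 3 the H2A gene was, and 1 pair was mixed. These levels were not corrected for how well reads can be assigned. Antisense exons overlap all 18 H2A genes but only 1 of the 18 H2B genes. Hist1h2bj, at 45.6 to 67.7 CPM per kb, faced Hist1h2ag with 0 counts. Hist1h2bg had 305 counts over the 4 libraries and its partner Hist1h2ae 18. Hist1h2ap, conversely, faced Hist1h2br with 0 counts. Of the windows of 50 bases, 78.9% in Hist1h2ag and 88.7% in Hist1h2br also occurred elsewhere, against 59.4% in Hist1h2bj and 93.1% in Hist1h2ap. Whether reads lost in this way lowered 1 side of a pair was not tested. Hist1h2bh faced an H3 gene, Hist1h3f, 660 bases away and with 0 counts. Both genes of a pair being tested occurred only for Hist1h2bf and Hist1h2ad, whose log2 fold changes were 0.21 and 0.28 with neither called.

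**Figure D4:**
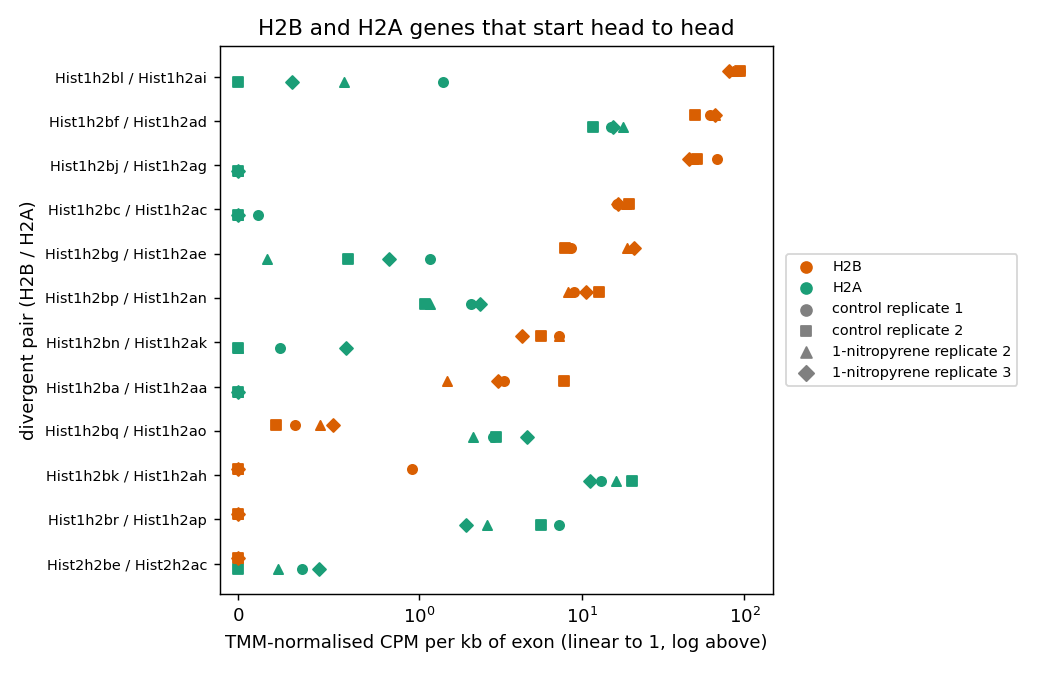
TMM-normalised CPM per kb of exon (linear to 1, log above) for the 12 pairs of H2B (orange) and H2A (green) genes that start head to head, with 1 symbol per library. The orange points lie to the right of the green ones in 8 pairs and to the left in 3 pairs, and for Hist2h2be and Hist2h2ac both lie near 0.

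Promoters were read from RefSeq (GRCm38.p6), in which 69 of the 75 members were matched. The letters CCAAT, ATTTGCAT (the octamer bound by Oct factors), TATAAA and AAACACA were searched on both strands in the 250 bases before each start. CCAAT was found in 18 of 18 H2A and 16 of 16 H2B promoters, against 33.8% of 32851 promoters of the same length. The octamer was found in 7 of 18 H2A and 6 of 16 H2B promoters, against 1.601% of all, and in 0 of 10 H3 and 0 of 12 H4 promoters. The windows of H2A and H2B genes that start head to head overlap. A match can therefore count in both families, and their shares are not separate observations. CCAAT was also found in 8 of 10 H3 and 3 of 12 H4 promoters. TATAAA was found in 7 of 18 H2A, 8 of 16 H2B, 4 of 10 H3 and 6 of 12 H4 promoters, against 12.4% of all. Stretches of 120 bases that end 11 bases before the RefSeq start are given 5′ to 3′ for the H2B genes called and for H1f0, with matched letters in capitals (ATTGG is CCAAT on the other strand), since genes that moved in opposite directions could be set side by side.
Hist1h2bh (chr13:23543455-23543574, minus strand): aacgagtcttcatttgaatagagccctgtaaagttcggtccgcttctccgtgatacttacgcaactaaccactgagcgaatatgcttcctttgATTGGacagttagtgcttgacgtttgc
Hist1h2bg (chr13:23571270-23571389, plus strand): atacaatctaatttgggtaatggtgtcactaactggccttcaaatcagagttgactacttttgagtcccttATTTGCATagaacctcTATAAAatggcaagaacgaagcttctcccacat
Hist1h2bm (chr13:21721914-21722033, plus strand): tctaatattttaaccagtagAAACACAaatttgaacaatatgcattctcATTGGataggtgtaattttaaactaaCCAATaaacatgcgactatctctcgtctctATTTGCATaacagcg
Hist1h2bj (chr13:22043068-22043187, plus strand): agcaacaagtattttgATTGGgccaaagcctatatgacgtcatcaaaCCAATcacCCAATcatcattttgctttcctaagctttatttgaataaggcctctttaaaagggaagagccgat
H1f0 (chr15:79028082-79028201, plus strand): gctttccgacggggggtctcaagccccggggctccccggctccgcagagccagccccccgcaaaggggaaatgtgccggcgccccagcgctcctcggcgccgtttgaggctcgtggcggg
Of the 3 H2B genes that rose, Hist1h2bg and Hist1h2bm held the exact octamer and Hist1h2bh did not, and Hist1h2bj, which fell, did not hold it either. H1f0 held none of the 4 sets of letters in the 250 bases before its RefSeq start. That start lies upstream of the start of the gene model used for its counts, and the bases between were not searched. The same holds over shorter distances for Hist1h2bh and Hist1h2bj. A match describes letters only, and no match says only that these letters are not in this window.

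Genes that act on histone mRNA were taken as lists and read from the same fit. Of 24 tested genes for histone transcription and 3′ end processing, 7 rose, 0 fell and 17 were not called, with a median log2 fold change of 0.24 against -0.0035 over all tested genes. Over all tested genes 24.5% were called, 13.2% higher and 11.2% lower. The share of this list called in either direction lay near 24.5%, but all 7 calls were rises, and no set test was run. Cstf3, a subunit of the cleavage stimulation factor, stood at 39.7, 41.1, 60.8 and 61.9 CPM and rose by 0.61 on the log2 scale. Sympk, the scaffold symplekin of the cleavage complex, rose by 0.30, Srrt (ARS2) by 0.44 and the Sm protein gene Snrpd3 by 0.65. Slbp and Npat, which act on histone genes in particular, were not called. Slbp, which encodes the stem-loop binding protein, stood at 3.58, 4.01, 5.06 and 4.58 CPM (adjusted p 0.418 in edgeR), and Npat, which encodes the coactivator of the histone clusters, stood at 6.07, 9.59, 7.70 and 7.75 CPM (adjusted p 0.910). Lsm10, a component of the U7 snRNP that cuts histone pre-mRNA, was at 0 in every library.

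Of 17 tested genes for histone mRNA decay, 4 rose, 0 fell and 13 were not called, with a median of 0.06. The share called in either direction was close to the 24.5% of all tested genes, but all 4 calls were rises. Over all tested genes 13.2% were called higher and 11.2% lower. Genes that rose included Lsm2, by 0.76 on the log2 scale, Upf1, by 0.17, and Smg5, by 0.18. Upf1 encodes the helicase that starts histone mRNA decay, and Lsm2 a subunit of the ring that binds decaying mRNA. Eri1, the nuclease that trims the stem-loop, was at 0 in every library.

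Of 35 tested histone chaperone, deposition and exchange genes, 15 rose, 6 fell and 14 were not called, with a median of 0.09, where 13.2% of all tested genes were called higher and 11.2% lower. The nucleolar chaperone gene Npm1 rose by 0.51 and Rbbp7, a subunit shared by several chromatin complexes, by 0.22 on the log2 scale. Ubn1, a subunit of the HIRA complex that lays down H3.3, fell by 0.44, as did Ino80, a remodelling ATPase that acts on H2A.Z nucleosomes.

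Of 28 tested S phase genes, 9 rose, 3 fell and 16 were not called, with a median of 0.09, where 13.2% of all tested genes were called higher and 11.2% lower. Pcna, the sliding clamp of DNA polymerase, stood at 29.0, 26.6, 42.9 and 47.8 CPM and rose by 0.69 on the log2 scale. Mcm6 rose by 0.27, Rrm1 by 0.29 and Ccne2 by 0.41. Gins2, a subunit of the GINS complex of the replicative helicase, fell by 0.76. Of 4 markers of proliferating cells, Mki67 and Ccnb1 were at 0 in every library while Top2a had 1167 to 1666 counts and Cdk1 390 to 606, and the 4 summed to 209, 223, 228 and 240 CPM.

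Outside the membership rule, 12 other histone genes were listed, of which 8 were at 0 and 3 were tested. H2afj, which encodes the H2A.J variant, stood at 6.16, 4.15, 14.1 and 13.6 CPM, with both treated libraries above both controls. It rose by 1.37 on the log2 scale (standard error 0.21, adjusted p 1.72e-09 in edgeR). H1fx stood at 11.03, 12.6, 12.3 and 11.04 CPM. H3f3c, which is annotated as a processed pseudogene, stood at 32.0, 32.2, 39.6 and 35.8 CPM. Neither H1fx nor H3f3c was called.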

How the data were processed

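Per the labels' protocols, RNA was extracted with Trizol and polyadenylated RNA was made into strand-specific libraries, and these 4 libraries were compared between 2 control libraries and 2 libraries treated with 1-nitropyrene. The deposited table gives raw counts of reads per gene, without normalization. The tools listed in the submitters' processing notes are featureCounts 1.6.3, HISAT2 2.1.0 and DESeq2, and the build listed is GRCm38, or mm10; the notes as held here do not say which step each served. Strand setting, treatment of reads with several matches and annotation release: not given in the sources used here.

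Of 53465 gene identifiers, 53360 were matched to GENCODE M21 (GRCm38) for symbols, gene types, coordinates and transcript sequences. Counts were analysed in R 4.3.3 with edgeR 4.0.16 (filterByExpr, TMM, glmQLFit with legacy set to FALSE, glmQLFTest) on all genes. The estimated coefficient of variation was 2.34%, with infinite prior degrees of freedom, so all 7738 genes shared 1 spread. Standard errors were derived from the fold change and its F statistic. Tests are two-sided.

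Alternatives were other scalings, filters and thresholds, DESeq2 1.42.0, limma-voom (limma 3.58.1), other quasi-likelihood fits and each library left out in turn. Named were all variants, all tested members, the member with the most counts among those not tested, and up to 4 genes of each list, called ones first by p. Slbp, Npat, Lsm10, Eri1 and Gins2 were named outside this rule. The members and lists were chosen with earlier results of these data known. Counts were simulated for the same 7738 genes with 1 spread for all (dispersion 0.001), and 50 genes were altered at each fold size. The fit recovered 44% at 1.25-fold, 64% at 1.5-fold, 92% at 2-fold and 98% at 3-fold, and 4.49% of the calls were false. The simulation shared the fit's assumption of 1 spread. These rates therefore do not cover genes whose spread differs, such as Hist2h2ab. Pairs of replicates differed by more than sampling noise (chi-square per degree of freedom 1.62 and 2.05), so no library was treated as a second deposit of another. This does not show that they came from separate cultures.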

Additional observations from a re-analysis of the deposited data

How the results depend on the processing

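No paired analysis was possible because the 2 groups share only replicate number 2. Across 15 alternative settings, H1f0, Hist1h2bm and Hist1h2bh kept their direction and call wherever they were tested with an adjusted p, as did Hist1h2bg, for which DESeq2 gave none. For 18 of the 32 tested members DESeq2 gave no adjusted p, and a mean of at least 10 CPM kept 14 of them. The number of members called lower, 4 in the report, was 2 with no filter on low counts, 1 with DESeq2, 2 at an adjusted p under 0.01, and between 1 and 4 with a library left out, lowest without 1-nitropyrene replicate 3 and 2 without control replicate 1. The number called higher was 2 to 4 in all settings. Over all genes, 1024 were called higher and 870 lower; DESeq2 called 465 and 254, and the number lower was 532 with no filter, 568 at 0.01 and 507 to 647 with a library left out, lowest without control replicate 1. In the lists of related genes, 36 were called higher and 9 lower; DESeq2 called 20 and 5, and with a library left out 26 to 32 and 5 to 10, the 5 without 1-nitropyrene replicate 3. The cause of these differences was not tested.

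For the log2 ratios of family sums, leaving out a library gave -0.49 to 0.49 for H2A, 0.16 to 0.27 for H2B, 0.13 to 0.39 for H4 and 0.048 to 0.30 for all replication-dependent genes. Without its member with the most counts the H2B ratio was 0.29. The ratio of the variants was -0.18 with upper quartile scaling, -0.20 with library totals only, -0.028 without H1f0 and -0.056 without the members that overlap exons of a gene on the other strand. H1f0 is among those overlapping members.

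Members that turned direction had small changes in the report or few counts. Among settings with all libraries, these log2 fold changes were 0.086 for Hist2h2ab and 0.31 for Hist1h3e with limma-voom, 0.037 for Hist1h3e with the older quasi-likelihood, and 0.0021 for H3f3a with no filter. For Hist1h2bc they were -0.0068 with upper quartile scaling, -0.023 with library totals only, -0.016 with a mean of at least 10 CPM, -0.012 with DESeq2 and -0.0020 with the older quasi-likelihood. With a library left out the ranges were -0.57 to 0.066 for Hist1h2ah, -0.43 to 0.67 for Hist1h2ao, -0.65 to 0.91 for Hist2h2aa2, -0.81 to 1.51 for Hist2h2ab, -0.13 to 0.11 for Hist1h2bc, -0.61 to 0.13 for Hist1h2bn and -0.43 to 0.077 for Hist1h2bp. They were -0.53 to 0.063 for Hist1h3a, -0.23 to 2.22 for Hist1h3d, -0.86 to 2.101 for Hist1h3e, -0.040 to 0.73 for Hist2h3c2, -0.98 to 0.093 for Hist1h4j, -0.087 to 0.88 for Hist1h4k, -0.015 to 0.32 for H2afx, -0.052 to 0.0091 for H2afz and -0.025 to 0.013 for H3f3a. Such fits take the remaining single library to have the spread of the opposite pair. Depth limits the genes under 5 CPM, whose standard errors exceeded 0.29.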

Other observations

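Pseudogenes and copies of histone genes outside the membership rule also held reads. H3f3a-ps2, a processed copy of H3f3a on chromosome 16, had 1331, 908, 1124 and 1031 counts, and H3f3a-ps1 on chromosome X had 65, 37, 45 and 41. Hist1h2aj, annotated as an unprocessed pseudogene in the Hist1 cluster, had 128, 61, 107 and 104 counts, more than each tested H2A gene other than Hist2h2ab. None of the 3 was called with 1-nitropyrene in edgeR's quasi-likelihood test (log2 fold changes -0.01, -0.19 and 0.21). The predicted short gene Gm44390, which lies on the opposite strand of Hist1h2ah, had 135, 67, 162 and 129 counts.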
